A study of Mus musculus with 8 samples.

Results

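The genes described here are 10 mouse genes that code for the machinery carrying secretory granules to the cell surface and fusing them with it. They were chosen by name, as Rab3d, Rab26, Rab27a, Rab27b, Sytl2, Sytl4, Vamp8, Stx3, Snap23 and Stxbp2, and all 10 were found among the 55414 gene identifiers of the count table. RNA-seq counts came from small intestinal Paneth cells, sorted by FACS from 8 mice whose genotype is given as C57BL/6J in both groups. For 7 weeks, 4 of the mice ate standard chow (control diet) and 4 ate zinc depleted chow (zinc depleted diet), each freely, and every mouse gave 1 library. Neither the age of the mice nor the zinc content of the depleted chow is analysed here. All 8 libraries held at least 333 counts of Xist and 0 counts of the Y-linked genes Ddx3y, Uty and Kdm5d.

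Paneth cells store antimicrobial peptides such as lysozyme and α-defensins in large apical granules and release them into the crypt lumen by regulated exocytosis. In this process small GTPases of the Rab family sit on the granule membrane and recruit effectors that tether the granule below the plasma membrane. SNARE proteins on the granule (VAMPs) and on the target membrane (syntaxins and SNAP proteins) then zip together, while Sec1/Munc18 proteins, of which Stxbp2 is a member, chaperone the syntaxin. Zinc is itself concentrated in Paneth cell granules, so the comparison of the diets asks whether the release machinery is transcribed differently when dietary zinc is scarce.

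Rab proteins and Snap23 hold on to membranes through lipids attached to cysteines, and the codons for those cysteines are shown because they are a feature that the choice of genes did not use. The last 30 coding bases before the stop codon are given 5′ to 3′ for the Rab genes Rab3d (chromosome 9), Rab26 (chromosome 17) and Rab27a (chromosome 9), from the canonical transcripts of GENCODE M39 on GRCm39, with the cysteine codons TGT and TGC in capitals. For Snap23 (chromosome 2), a SNARE without a membrane-spanning segment, the line shows coding bases 235 to 270. This stretch was chosen as the 12 codons with the most cysteine codons, of which it holds 5.
Rab3d: ccacccccacagccgagcagcTGCagcTGT
Rab26: gagggccgaggggtctccTGCTGTcgactc
Rab27a: gaggagaaggagaaggggttgTGTggcTGT
Snap23: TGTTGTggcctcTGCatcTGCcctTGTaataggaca

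In Rab3d and Rab27a, 2 cysteine codons stand at the very end with 1 codon between them, whereas in Rab26 the 2 cysteine codons are adjacent and are followed by 2 further codons. The coding sequences of Rab27a and Rab27b (663 and 654 bases) are 67.6% identical in a global alignment, and those of Rab3d and Rab26 are 49.1% identical. No window of 70 bases of the canonical Rab27b, Sytl2, Sytl4 or Rab26 transcript occurs in a transcript of another gene. Exons outside the canonical transcripts were not searched. Windows found in another gene's transcripts made up 2.51% of the Rab3d transcript, 0.547% of Rab27a, 1.30% of Stxbp2 and 10.4% of Vamp8. They made up 51.3% of Stx3, all in Mrpl16 on the opposite strand, and 44.3% of Snap23, in Lrrc57 on the opposite strand and in transcripts of other genes. It is not stated whether counting used the strand, so counts of Stx3 and Snap23 may lack or include reads of these neighbours.

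The libraries held 8557690 to 11826416 counts in control mice and 9924102 to 12648005 counts in zinc depleted mice. The defining Paneth cell products were very abundant, since the 7 Paneth markers together took 461778 to 569847 CPM (counts scaled to a common library total) in control mice and 521836 to 608408 in zinc depleted mice. Because such genes take much of each library, the remaining genes were compared on TMM-scaled CPM, for which the scaling factors ranged from 0.928 to 1.57 in control mice and from 0.719 to 1.10 in zinc depleted mice. Control replicate 1 had the highest factor and the lowest α-defensin share (35.7% of its counts, against 41.5% to 50.9% in the others). Markers of lymphocytes, other myeloid cells and stromal cells were at or near 0 (at most 2.88, 0.698 and 0.254 CPM summed per mouse), and 3 of the 6 mast cell markers (Cpa3, Mcpt1 and Mcpt2) had 0 counts in all 8 mice. The mast cell list summed to 93.9 to 174 CPM in control mice and 74.7 to 155 CPM in zinc depleted mice, nearly all of it Kit, which had 739 to 2053 counts per mouse against 23 counts of Tpsb2 and 3 of Fcer1a in all mice together. These are bulk samples, in which fewer cells of a type and less RNA per cell cannot be told apart.

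Levels between genes were compared per length, as TPM (counts per length, scaled to a common sum) from the summed exon length of each gene. Rab3d, a GTPase on mature secretory granules, was the highest of the 10, and Rab26, a GTPase also linked to granule maturation, was the lowest. In descending order the means over 8 mice were 39.1 ± 11.0 TPM (SD) for Rab3d, 12.1 ± 1.42 for Vamp8, 8.74 ± 2.50 for Rab27a, 7.44 ± 2.67 for Stxbp2 and 5.99 ± 2.66 for Sytl2. Lower means were those of Rab27b (4.09 ± 1.48 TPM), Snap23 (2.69 ± 0.514), Sytl4 (0.795 ± 0.289), Stx3 (0.729 ± 0.266) and Rab26 (0.208 ± 0.169). The median gene tested had 1.43 TPM. Rab3d ranked 218 among the 10911 genes tested (97.9th percentile), and 7 of the 9 exocytosis genes tested lay above that median.

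**Figure D1:**
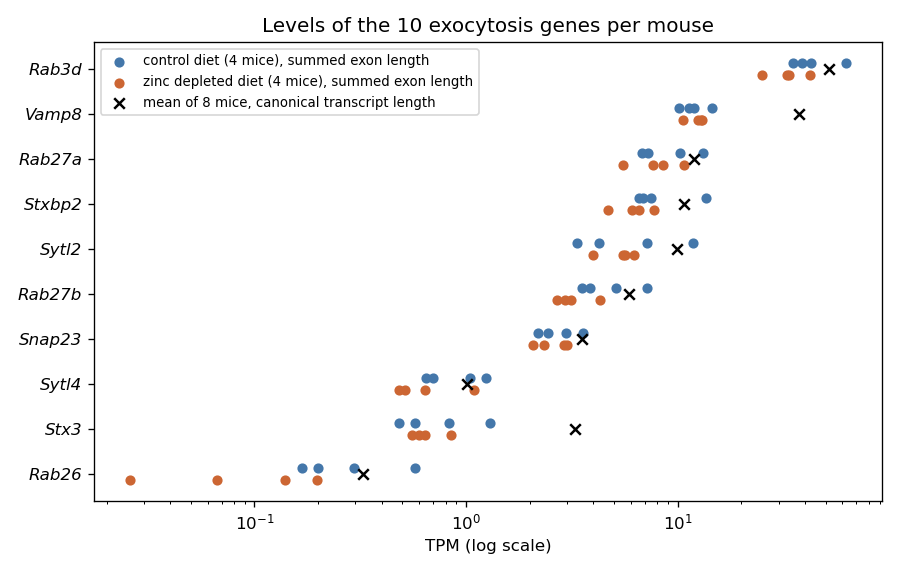
TPM (log axis) of the 10 exocytosis genes in each mouse from the summed exon length (blue, control diet; orange, zinc depleted diet), with the mean from the canonical transcript length as a cross. Rab3d leads with a mean of 39.1 TPM, Rab26 is lowest with 0.208 TPM, and the cross lies far to the right of the points for Stx3 (3.26 TPM) and Vamp8 (37.5 TPM).

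Of the 9 pairs of neighbours in this order, 7 differed beyond their spread over the mice (exact permutation test by sign flips within mice, two-sided, Benjamini-Hochberg adjusted over 9 pairs). The order was taken from these same mice, so the direction of each difference was set beforehand. The p-values therefore measure only how steady a difference was over the mice. Rab3d exceeded Vamp8 in 8 of 8 mice, by 1.58 ± 0.290 on the scale of log2(TPM + 1) (exact p = 0.00781, adjusted p = 0.0141, where 0.00781 is the smallest p that 8 mice allow). Stxbp2 and Sytl2 did not differ beyond their spread (difference 0.298 ± 0.362, exact p = 0.0547, adjusted p = 0.0615), and neither did Sytl4 and Stx3 (0.0515 ± 0.109, exact p = 0.219, adjusted p = 0.219). The order depends on the length used for Stx3, whose summed exons measure 13515 bases and whose canonical transcript measures 2612. With canonical lengths Rab3d exceeded Vamp8 by only 0.423 ± 0.290 (8 of 8 mice), Stx3 had 3.26 TPM and Sytl4 had 1.01, Stx3 exceeded Sytl4 in 8 of 8 mice, and 6 of the 9 neighbouring pairs differed.

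Among the Rab members, Rab3d (chromosome 9, 21818510 to 21829622, minus strand, GRCm39) had 4579, 3120, 2478 and 2628 counts in the 4 control mice and 2429, 2262, 3426 and 3178 counts in the 4 zinc depleted mice. On the TMM scale these were 246, 255, 312 and 278 CPM on the control diet and 262, 285, 273 and 297 CPM on the zinc depleted diet. The 2 ranges overlapped almost wholly, and on this scale Rab3d varied little between mice (SD of 0.113 in log2 CPM, less than in all but 2.05% of the genes tested). Without TMM, Rab3d had 39.1 ± 11.0 TPM, a wider spread. Its relative Rab3a, the neuronal Rab3, had 1.40 ± 0.477 TPM, 18.9 to 43.9 times lower in each mouse. Rab3b and Rab3c had 9 and 12 counts in all mice together.

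Rab26 (chromosome 17, 24746215 to 24753184, minus strand) had 20, 7, 9 and 6 counts in the control mice and 7, 6, 1 and 3 counts in the zinc depleted mice. In 2 of the zinc depleted mice this is at or below 3 counts, the limit that a count of 0 allows. Rab26 did not pass edgeR's expression filter on low counts, which is separate from that limit. Without the filter its log2 fold change was -0.92 (standard error 0.76, adjusted p = 0.693, edgeR's quasi-likelihood test). Rab26 and Rab3d have both been described as targets of the transcription factor Bhlha15 (MIST1) in other secretory cells. In these Paneth cells Bhlha15 had 58.0 ± 18.9 TPM, above Rab3d, and the log2 ratio of Rab3d to Rab26 counts was 7.80 to 8.70 in control mice and 8.34 to 11.2 in zinc depleted mice. The difference of 1.14 between the means did not pass the threshold (exact permutation p = 0.171, adjusted p = 0.257). It was 0.56 with a pseudocount of 5 counts, and the ratio of 11.2 rests on 1 count of Rab26. Rab26 overlaps Traf7 on the same strand and Rab26os on the opposite strand, so its few counts are uncertain.

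Rab27a and Rab27b are GTPases that bring granules to the cell periphery through Slp (Sytl) and Slac2 effectors. Rab27a (chromosome 9, 72952124 to 73004911, plus strand) had 41.3, 49.2, 46.5 and 42.7 TMM-scaled CPM in control mice and 48.7, 49.6, 55.2 and 59.6 in zinc depleted mice. Rab27b (chromosome 18, 70112202 to 70274903, minus strand) had 56.6, 61.5, 56.8 and 61.2 CPM in control mice and 46.7, 61.2, 55.7 and 55.4 in zinc depleted mice. Rab27a was thus lower in 3 of the control mice than in every zinc depleted mouse, and for Rab27b 3 of the zinc depleted mice lay below every control mouse. The log2 ratio of Rab27b to Rab27a counts was 0.456, 0.321, 0.289 and 0.519 in control mice and -0.0619, 0.303, 0.0124 and -0.105 in zinc depleted mice. A ratio within a library does not depend on how the library is scaled. The difference of -0.36 (means 0.396 ± 0.109 and 0.0371 ± 0.184, SD, n = 4 each) gave p = 0.0571 by exact permutation over 70 assignments (two-sided), and p = 0.171 after adjustment over the 3 ratios tested, so it did not pass the threshold of 0.05. The smallest p that 4 against 4 mice allow is 0.0286, which for a single ratio of 3 does not pass after adjustment.

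**Figure D2:**
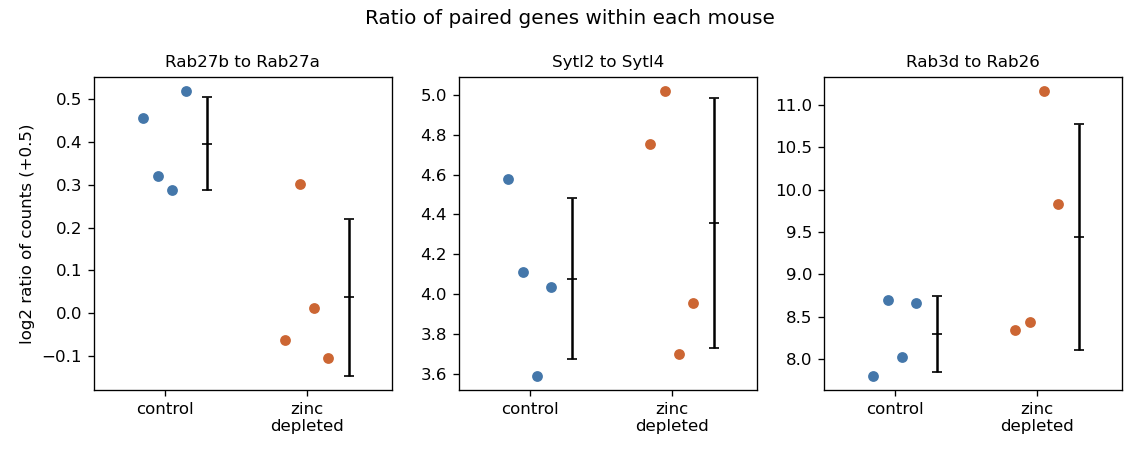
Log2 ratio of counts within each mouse (points), with mean and SD (n = 4) per diet, for Rab27b to Rab27a, Sytl2 to Sytl4 and Rab3d to Rab26. Only zinc depleted replicate 2 (0.303) lies within the control range of the Rab27b to Rab27a ratio, and the other 2 ratios overlap between diets.

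Sytl2 and Sytl4 code for synaptotagmin-like proteins, which bind Rab27 on the granule and link it to the plasma membrane. Sytl2 (chromosome 7, 89951453 to 90059927, plus strand) had 108, 101, 62.8 and 78.9 TMM-scaled CPM in control mice and 103, 166, 85.3 and 81.9 in zinc depleted mice. It was the most variable of the 9 genes tested (SD of 0.413 in log2 CPM), with its highest value in zinc depleted replicate 2 and its lowest in control replicate 3. Sytl4 (chromosome X, 132837134 to 132882561, minus strand), known as granuphilin in insulin-secreting cells, had 35 to 84 counts per mouse. Sytl1, another Slp gene, stood level with Sytl2 per length (6.03 ± 1.85 TPM), with ratios of Sytl2 to Sytl1 from 0.696 to 1.28. Sytl5 had 0.949 TPM and Sytl3 had 11 counts in all mice together. The log2 ratio of Sytl2 to Sytl4 was 4.08 ± 0.404 in control mice and 4.36 ± 0.629 in zinc depleted mice (exact permutation p = 0.457, adjusted p = 0.457).

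The SNARE Vamp8 (chromosome 6, 72359012 to 72368482, minus strand), found on the granules of exocrine cells, had 28.0, 33.5, 47.1 and 39.7 TMM-scaled CPM in control mice and 51.1, 59.1, 41.2 and 54.1 in zinc depleted mice. Of the zinc depleted mice, 3 lay above every control mouse, and the fourth lay within the control range. Its log2 fold change of 0.47 (standard error 0.17, 95% confidence interval 0.12 to 0.83) had the lowest p of the 9 genes tested (unadjusted p = 0.0110) but did not pass adjustment over all genes (adjusted p = 0.281). On library size alone it was 0.14, with 44.1, 38.9, 43.7 and 37.6 CPM in control mice and 47.8, 42.5, 45.1 and 45.8 in zinc depleted mice. Per length, Vamp8 exceeded the other VAMPs listed in 8 of 8 mice, namely Vamp2 (4.28 ± 2.90 TPM), Vamp3 (3.56), Vamp4 (1.36), Vamp1 (0.274) and Vamp5 (0.0970).

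On the target membrane, Snap23 (chromosome 2, 120397782 to 120433531, plus strand), the widely expressed relative of the neuronal Snap25, had 17.2, 21.9, 23.8 and 21.1 TMM-scaled CPM in control mice and 22.7, 28.6, 22.8 and 32.4 in zinc depleted mice. The ranges overlapped, and the log2 fold change of 0.35 (standard error 0.17, 95% confidence interval 0.00112 to 0.695) had an unadjusted p of 0.0493 and an adjusted p of 0.473 by edgeR's quasi-likelihood test, while on library size alone it was -0.0045. Lrrc57, which overlaps Snap23 on the opposite strand, was low by comparison (18 to 60 counts per mouse, against 189 to 347 for Snap23). Reads of Snap23 lost from shared stretches would not show in this comparison, and counts of the other genes that share windows with it are not given here. Snap25 had 5 counts in all mice together and 0 in 6 of them. Snap29, a SNARE of intracellular fusion, had 3.36 ± 0.960 TPM, above Snap23 in 7 of 8 mice.

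Stx3 (chromosome 19, 11752463 to 11796767, minus strand), the apical syntaxin of epithelial cells, had 82 to 216 counts per mouse and 10.5 ± 1.34 TMM-scaled CPM in control mice against 12.6 ± 1.43 in zinc depleted mice (SD, n = 4 each). Mrpl16, with which it shares sequence on the opposite strand, had 73 to 147 counts per mouse, so the uncertainty of Stx3 is of the size of its own counts. Stx4a, a basolateral syntaxin, had 2.98 ± 1.17 TPM and exceeded Stx3 in 8 of 8 mice (in 7 of 8 with canonical lengths, where Stx4a had 4.11 TPM and Stx3 had 3.26). Syntaxins of other secretory cells were scarce, with 11 counts for Stx1a, 13 for Stx2 and 3 for Stx11 over all 8 mice.

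Stxbp2 (chromosome 8, 3680932 to 3694003, plus strand), also known as Munc18-2 and the usual partner of Stx3, had 43.4, 36.3, 44.5 and 42.0 TMM-scaled CPM in control mice and 42.2, 42.8, 40.5 and 43.5 in zinc depleted mice. On the TMM scale it was the steadiest of the 9 genes, with an SD of 0.0905 in log2 CPM that was smaller in only 0.788% of the genes tested. This rank depends on the scaling, since without TMM Stxbp2 had 7.44 ± 2.67 TPM and Vamp8 had 12.1 ± 1.42. Stxbp3, a relative of Stxbp2 (1.28 ± 0.450 TPM), was 4.78 to 7.32 times lower in each mouse.

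**Figure D3:**
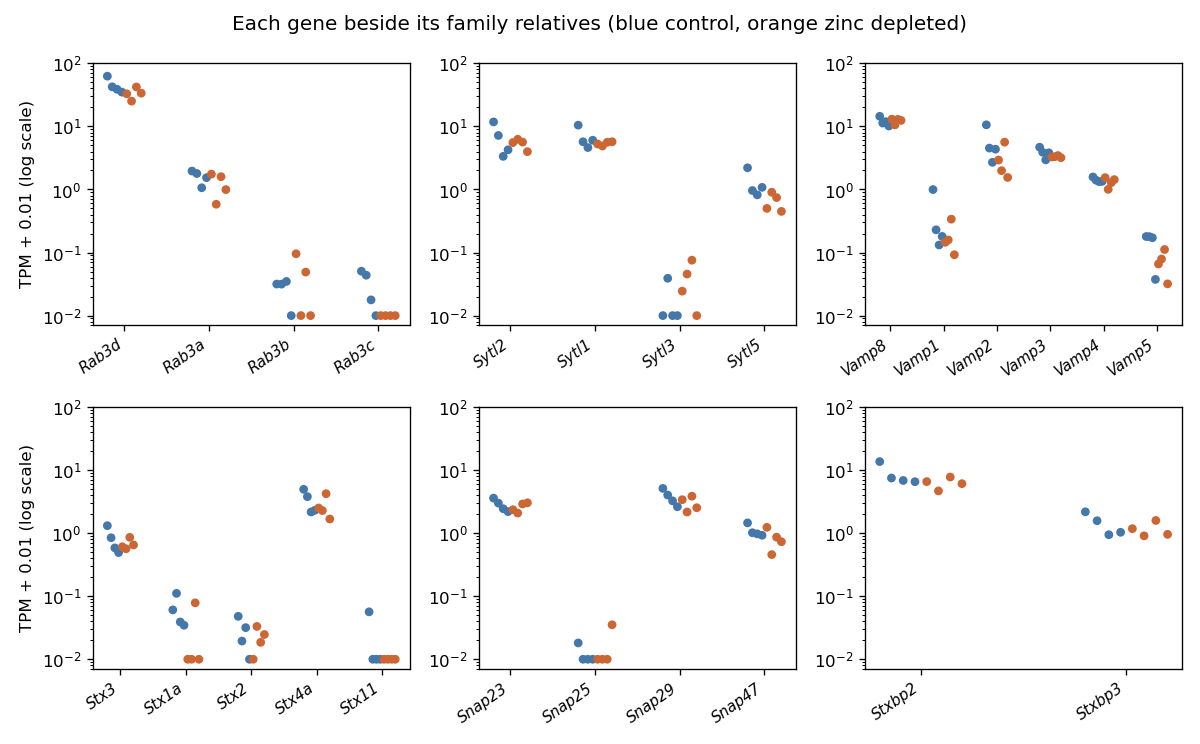
TPM + 0.01 (log axis, summed exon length) in each mouse for 6 of the genes, each first in its panel, beside relatives from their families (blue, control diet; orange, zinc depleted diet). Rab3d, Vamp8 and Stxbp2 lie above every relative shown in all 8 mice, Sytl2 and Sytl1 lie together, Stx4a lies above Stx3 in all 8 mice, and Snap29 lies above Snap23 in 7 of 8.

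Between diets, 0 of the 9 genes tested passed the threshold of 0.05 in either direction after Benjamini-Hochberg adjustment over 10911 genes (edgeR), where 0.403% of all genes did (0.147% higher and 0.257% lower in zinc depleted mice). By DESeq2 0 of the 10 genes passed as well. Of the 9 genes, 2 (Vamp8 and Snap23) had an unadjusted p under 0.05, both higher in zinc depleted mice, where 10.5% of all genes had one (4.43% higher and 6.04% lower). None of the 9 had values that did not overlap between diets, where 6.09% of all genes did (2.3% higher and 3.79% lower). The median log2 fold change of the 9 genes was 0.25, with 8 of 9 above 0, and that of all genes tested was -0.0052, with 50.7% of genes below 0. Without zinc depleted replicate 2 the median of the 9 genes was 0.04, and without the filter, which brings in Rab26, that of the 10 genes was 0.14. On library size alone the median of all genes shifted by -0.36 relative to the TMM scale, and that of the 9 genes was -0.16, that of all genes was -0.37, and 7 of the 8 genes above 0 turned below 0.

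The intervals of the differences show what these 8 mice could resolve. For Stxbp2 the log2 fold change was 0.02 (95% confidence interval -0.25 to 0.30), for Rab3d 0.03 (-0.29 to 0.36) and for Rab27b -0.11 (-0.39 to 0.17). For Rab27a it was 0.25 (-0.03 to 0.53), for Stx3 0.25 (-0.13 to 0.62) and for Sytl2 0.31 (-0.16 to 0.78). The value of Sytl2 rested largely on zinc depleted replicate 2, without which it was 0.036, and without control replicate 3 it was 0.18. For Sytl4, the gene with the fewest counts of those tested, it was 0.03 (-0.47 to 0.54). A doubling or halving lay outside the interval of each of the 9 genes tested, Vamp8 and Snap23 included. These intervals hold on the TMM scale and do not cover the choice of scaling.

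**Figure D4:**
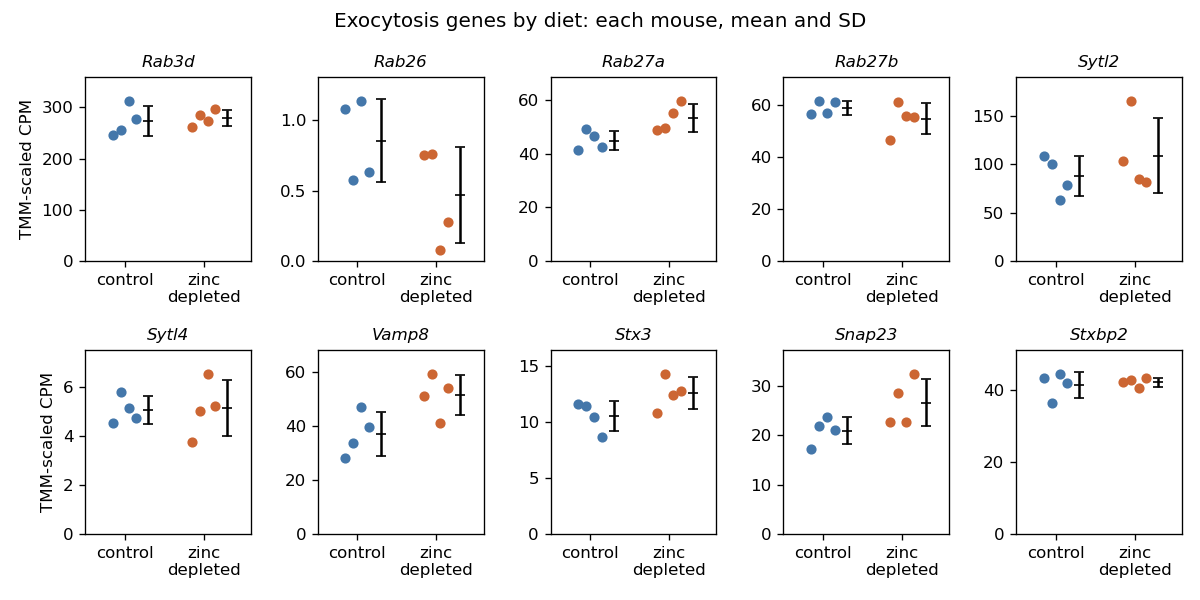
TMM-scaled CPM of each of the 10 genes in each mouse (points), with mean and SD (n = 4) per diet. The diets overlap for every gene, and Vamp8 shows 3 zinc depleted mice (51.1, 54.1 and 59.1) above the highest control mouse (47.1).

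**Figure D5:**
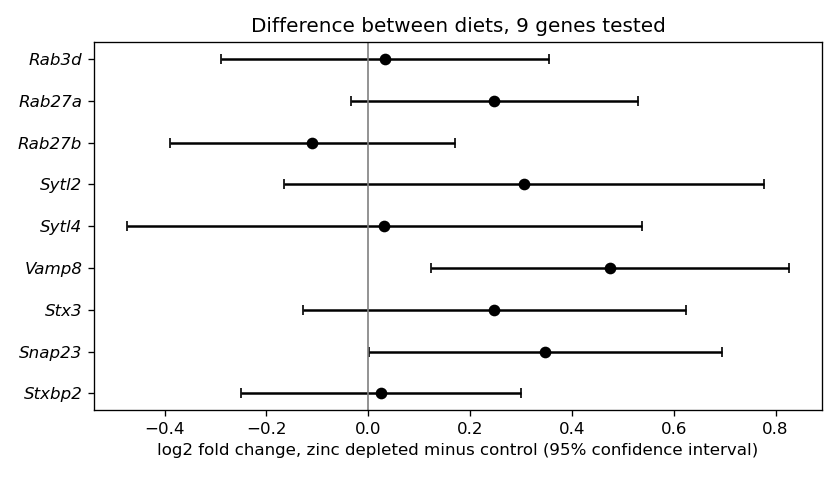
Log2 fold change, zinc depleted minus control, with its 95% confidence interval from edgeR for the 9 genes tested. The intervals of Vamp8 (0.12 to 0.83) and Snap23 lie above 0 before adjustment for the number of genes, and the other 7 include 0.

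Markers of stem and dividing cells were lower on the zinc depleted diet in these libraries, though not every marker was separated by diet. All 6 markers of that list had a log2 fold change below 0, where 50.7% of all genes did, 1 of them (Top2a) with an adjusted p past the threshold (0.0229, edgeR). Their summed level did not overlap (1227 to 1978 CPM in control mice and 419 to 956 CPM in zinc depleted mice, or 1259 to 1828 and 496 to 1022 on the TMM scale). Most of that sum was Olfm4, with means of 1345 CPM in control mice and 693 CPM in zinc depleted mice on the TMM scale. On that scale Olfm4, Lgr5 and Top2a did not overlap between diets, against 3.79% of all genes lower without overlap. The marker list was chosen with earlier results of these data known, so this count is a description and not a test of the list. Ascl2, Mki67 and Ccnb1 overlapped. The calls depended on the setting. Top2a did not pass on library size only (adjusted p = 0.116, edgeR) or without control replicate 2 (0.108), control replicate 4 (0.0949), zinc depleted replicate 2 (0.0506) or zinc depleted replicate 4 (0.0674). Olfm4 passed with DESeq2 (adjusted p = 0.00591), without the filter (0.000684) and on library size only (0.0284), and Mki67 passed without the filter (edgeR, adjusted p = 0.0013). The part of this difference in the values of Vamp8, Snap23 and Rab27a was not tested. On either scale summed goblet cell markers overlapped between diets (6358 to 9424 and 6531 to 10635 CPM), as did those of enterocytes (27.5 to 139 and 16.1 to 142 CPM) and tuft cells (49.1 to 83.0 and 13.8 to 383 CPM). Summed enteroendocrine markers overlapped at the edge on library size (26.5 to 42.0 and 16.5 to 26.7 CPM) and more widely on the TMM scale (26.7 to 38.4 and 19.5 to 30.5). Of the 6 markers listed 3 were tested (Chga, Chgb and Pcsk1). All 3 had a log2 fold change below 0, where 50.7% of all genes did, and 0 of the 3 passed the adjusted threshold in the main fit. Without the filter Chga passed (log2 fold change -1.64, adjusted p = 0.0256, edgeR). In that fit Tph1 was also below 0 (-1.30), while Neurod1 (0.85) and Cpe (0.26) were above 0. Mean TMM-scaled CPM in control and zinc depleted mice were 3.57 and 1.21 for Chga, 9.33 and 4.74 for Chgb, and 18.3 and 17.8 for Pcsk1.

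The granule cargo itself was also compared. None of the 7 cargo genes listed passed the adjusted threshold in the main edgeR fit, where 0.403% of all genes did. Of these cargo genes, 2 (Mptx2 and Ang4) did not overlap between diets, both higher in zinc depleted mice, against 2.3% of all genes. The cargo list was chosen with earlier results of these data known, so this count is a description and not a test of the list. The lowest adjusted p was that of Mptx2, a mucosal pentraxin (log2 fold change 1.45, adjusted p = 0.0712). This call depended on the setting, since Mptx2 passed with DESeq2 (adjusted p = 0.00825), without the filter (5.8e-05), on library size only (0.0284) and without zinc depleted replicate 3 (0.0475), and Ang4 passed without the filter (edgeR, adjusted p = 0.0345). Lyz1 (lysozyme) had a log2 fold change of 0.43 and Mmp7, the protease that activates mouse α-defensins, one of 0.52, with adjusted p of 0.748 and 0.591 (edgeR). On library size alone the log2 fold changes were 0.10 for Lyz1 and 0.20 for Mmp7.

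Outside the 10 genes, 93 of 94 listed genes of the exocytosis machinery were matched in the table (Vamp7 was not), and 71 were tested. None passed the adjusted threshold in either direction, against 0.403% of all genes, 2 had an unadjusted p under 0.05, against 10.5% of all genes, and the median log2 fold change was 0.06. Among Rab GTPases (10 of 12 tested), Rab10, which acts in exocytic transport, had 14.6 ± 4.71 TPM and Rab7, the late endosomal Rab, had 7.41 ± 2.12 TPM. The lowest p-values of this group were those of the recycling Rabs Rab11a (log2 fold change 0.32, adjusted p = 0.514) and Rab4a (0.34, adjusted p = 0.591).

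Rab regulators (13 of 14 tested) included the GDP dissociation inhibitor Gdi2, which retrieves Rabs from membranes and was the highest of them (9.17 TPM). Madd, an exchange factor for Rab3 and Rab27, had a log2 fold change of 0.39 (standard error 0.22, adjusted p = 0.572), and Rabggtb, the catalytic subunit of the enzyme that puts lipids on Rab cysteines, one of 0.25 (standard error 0.21, adjusted p = 0.742).

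Of the Rab effectors and motors, 9 of 15 were tested. Mlph, a Slac2 effector that couples Rab27 to a myosin, had 20.8 ± 8.81 TPM, more per length than Rab27a or Rab27b in the mean. On the TMM scale Myo5b, a myosin of apical transport, was higher in zinc depleted mice without overlap. It was the only 1 of the 71 other exocytosis genes tested that did not overlap between diets, against 6.09% of all genes. It had a log2 fold change of 0.24 (adjusted p = 0.581, edgeR), and Myrip, which also links Rab27 to a myosin, one of 0.30 (adjusted p = 0.646, edgeR). On library size alone these turned to -0.16 for Myo5b and -0.14 for Myrip. The priming factor Unc13d had 20 counts in all mice together, whereas Unc13b was tested. Rph3a had 0 counts in every mouse, which allows up to 0.237 to 0.351 CPM depending on the library.

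Other SNARE genes (15 of 22 tested) were led by Ykt6 (6.39 TPM) and Vti1b (4.40 TPM), which serve intracellular fusion, and had their lowest p-values at Stx6 (log2 fold change -0.41, adjusted p = 0.511) and Vti1a (0.33, adjusted p = 0.533). Among Sec1/Munc18 proteins, calcium sensors and recycling factors (13 of 20 tested), Napa, which takes spent SNARE complexes apart with Nsf, had 8.08 TPM. The calcium sensor Syt7 had 5.39 ± 2.59 TPM. Syt3 had a log2 fold change of -1.47 (standard error 0.56, unadjusted p = 0.0171, adjusted p = 0.337) at 0.271 TPM, and Cplx2, a complexin, one of -0.75 (standard error 0.35, unadjusted p = 0.0478, adjusted p = 0.469) at 0.625 TPM. The part of the enteroendocrine marker sums given above in the values of Syt3 and Cplx2 was not tested. Cplx1 had 0 counts in every mouse and Syt2 had 1 in all. Of the exocyst list 11 of 11 genes were tested, with Rala (4.85 TPM) and Exoc6 (1.97 TPM) highest, and Exoc2 (log2 fold change -0.26, adjusted p = 0.711) and Exoc1 (-0.26, adjusted p = 0.740) with the lowest p-values.

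The 9 genes did not share a single profile over the mice. Across 8 mice, with the diets pooled, the 36 pairs of genes had a median Pearson r of 0.161 on log2 TMM-scaled CPM, with r above 0.5 in 10 pairs and below 0 in 10 others. These values share libraries and scaling factors and are given as a description. Vamp8 and Snap23, both SNAREs, were each other's closest partner (r = 0.865), and the closest partner of Rab27a was Snap23 (0.786), that of Rab3d was Vamp8 (0.699) and that of Stx3 was Sytl2 (0.608). Rab27b and Sytl4 were closest to each other (0.559), and Rab27a and Rab27b had r = -0.19. Of all genes tested, those nearest to the mean profile of the 9 were Smagp (r = 0.956), Arpc1a (0.950), Aph1b (0.946), Armc1 (0.942) and Igsf5 (0.929).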

How the data were processed

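Paneth cell RNA of 8 mice was sequenced with a stranded mRNA kit, 1 library per mouse. The deposited values are raw counts, whole numbers for each Ensembl identifier. The submitters' processing notes name FastQC 0.12.0, STAR 2.7.0a, DESeq2 and mm39, while the counting program, its strand setting and the annotation are not stated. Identifiers were named with GENCODE M39 on GRCm39 (54749 of 55414 found, and of several identifiers with 1 symbol the one with most counts kept it). Sequences come from the same reference.

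CPM and TPM were computed from the counts, the latter with summed exon lengths or, as an alternative, canonical transcript lengths. For the diets edgeR 4.0.16 was run under R 4.3.3 (TMM, expression filter, robust quasi-likelihood test, Benjamini-Hochberg adjustment over 10911 genes, threshold 0.05), with standard errors taken as the log2 fold change over the root of F. DESeq2 1.42.0 was an alternative. The test was checked on simulated counts with known folds. Exact permutation tests used all assignments, pseudocounts of 1 TPM for levels and 0.5 counts for ratios. Other computations used Python 3.11.15. Chi-square per degree of freedom between libraries of 1 diet was 5.70 to 59.3, well above sampling noise for every pair. A floor of 3 counts covers counting error only.

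The genes and lists were chosen with earlier results of these data known. Genes named are the 10 members, the 2 highest and the 2 with the lowest p of each pathway list, the genes nearest in profile, cargo genes and markers, except for items not reported here. Family relatives, Mrpl16 and Lrrc57 were named after their values were seen. The count table has 0 columns of other samples. The design text of the series calls the mice biological replicates.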

Additional observations from a re-analysis of the deposited data

How the results depend on the processing

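In all 15 alternatives to the main comparison of the diets, which changed the scaling, filter, test, replicate block or mice, 0 of the exocytosis genes chosen and 0 of the other exocytosis genes listed had an adjusted p under 0.05. Over all genes the count of calls was 44, and it was 11 on library size only, 251 without the filter, 134 with DESeq2, 25 without the robust option, and 8 to 36 with each mouse left out (8 without control replicate 2 or 4, 13 without zinc depleted replicate 2, 17 without zinc depleted replicate 4 and 26 without zinc depleted replicate 1). The cause of these shifts was not tested.

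With library size only, which shifts all genes, the log2 fold changes turned to -0.31 for Rab3d, -0.10 for Rab27a, -0.16 for Sytl2, -0.31 for Sytl4, -0.15 for Stx3, -0.0045 for Snap23 and -0.34 for Stxbp2. Vamp8 (0.14 to 0.61) and Rab27b (-0.47 to -0.04) kept their direction in every alternative. With each mouse left out, the range was -0.016 to 0.11 for Rab3d (below 0 without control replicate 1), -0.11 to 0.16 for Sytl4 (below 0 without control replicate 1 or zinc depleted replicate 3) and -0.031 to 0.059 for Stxbp2 (below 0 without control replicate 2). Adjusted p-values of Vamp8 ranged from 0.139 to 0.675. With canonical transcript lengths 8 of 10 genes kept their place in the order of levels. With each mouse left out, 6 to 7 of the 9 neighbouring pairs differed. The replicate numbers do not pair the mice by any label, and the deviations of mice with the same number correlated by 0.0254 to 0.0900. With the replicate number as a block 53 genes were called in all, and the Rab27b to Rab27a ratio differed by -0.36.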
